A study of Mus musculus with 7 samples.

Results

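The mitochondrial ribosomal protein genes were taken as the protein-coding genes whose symbol is Mrpl or Mrps followed by a number in the GENCODE M21 annotation of the mouse genome (mm10). This rule uses names only and found 78 genes of 21938 protein-coding genes on the assembled chromosomes. They were 49 Mrpl and 29 Mrps genes, named for the large and the small subunit, and the symbol alone does not place a protein in a subunit. The 5 pseudogenes with such symbols were left out. A promoter peak of a gene was a peak whose summit lay from 2 kb upstream to 100 bp downstream of any of its annotated transcript starts, and peaks within 10 kb of a start were counted separately.

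CUT&Tag, in which an antibody directs a transposase to cut and tag the DNA around a protein, was performed with anti-HA antibody to ask where GATA2 and its variant 9aa-Ins occupied chromatin. All cells were hi-77-/- cells, a Hoxb8-immortalized line of mouse hematopoietic progenitors from fetal liver without an upstream enhancer of Gata2, so both groups share the deletion and the immortalization. Retroviral infection supplied GATA2 or 9aa-Ins, each with an HA tag, the latter carrying extra amino acids between its zinc fingers, and live GFP+ cells were sorted after 3 days of culture. Each group had 2 anti-HA replicates, split from 1 pool of cells and therefore sharing infection and sorting, and the deposited peak list of each group merges them. The series also has 3 anti-GATA2 libraries, which are not used here. There were thus no replicate values, no difference between the groups could be tested against replicate error, and intervals cover counting error only. No uninfected or empty-vector list was used, and a list of peaks holds no expression with which to check the labelled cell type.

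The mitochondrial ribosome translates the few proteins encoded by mitochondrial DNA, all of them subunits of the respiratory chain and ATP synthase. All of its proteins are encoded in the nucleus, made in the cytosol and imported. Some descend from proteins of the bacterial ribosome and keep their numbers, and others were added during the evolution of mitochondria. The genes are used in nearly all cell types, and promoters of this class are often rich in CpG and bind NRF1, YY1 and ETS factors such as GABP. GATA2 is a zinc finger factor of hematopoietic stem and progenitor cells that binds WGATAR sequences.

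With GATA2, 22 of the 78 genes (28.2%, Wilson 95% interval 19.4 to 39.0%) had a promoter peak, where 16.6% of all protein-coding genes had one, a value under this interval. The lists differ in length, 6254 GATA2 and 1079 9aa-Ins peaks, and with only as many GATA2 peaks of lowest q-value as 9aa-Ins had, the share was 3.85% beside 3.12% of all genes. With all genes weighted to the promoter CpG content of the group, described further on, their share was 25%, inside the interval. With 9aa-Ins, 5 genes had a promoter peak (6.41%, 2.77 to 14.1%), beside 4.19% of all genes, a value inside the interval. With the gene start only it was 2.56% beside 2.81% of all genes, and at a q-value of 1e-10 it was 2.56% beside 3.00%, so the order of group and all genes turned. Mrpl51, Mrps18b and Mrps36 had a promoter peak in both lists (3.85%, 1.32 to 10.7%), beside 3.80% of all genes. Mrpl17 and Mrpl57, 2 of the 5 genes with a 9aa-Ins promoter peak (11.8 to 76.9% by the Wilson interval), had none with GATA2, beside 9.35% of all genes with a 9aa-Ins promoter peak, and both lay near the lowest pileup called. The remaining 19 of the 22 genes with a GATA2 promoter peak (86.4%, 66.7 to 95.3%) had none with 9aa-Ins, beside 77.2% of all genes with a GATA2 promoter peak, a value inside the interval. Within 10 kb of a start, 33 genes had a GATA2 peak (42.3%, 32 to 53.4%) beside 24.2% of all genes, and 7 had a 9aa-Ins peak (8.97%, 4.42 to 17.4%) beside 6.19%. In all, 43 of the 78 genes (55.1%, 44.1 to 65.7%) had no peak of either list within 10 kb, fewer than the 75.5% of all protein-coding genes without one.

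**Figure D1:**
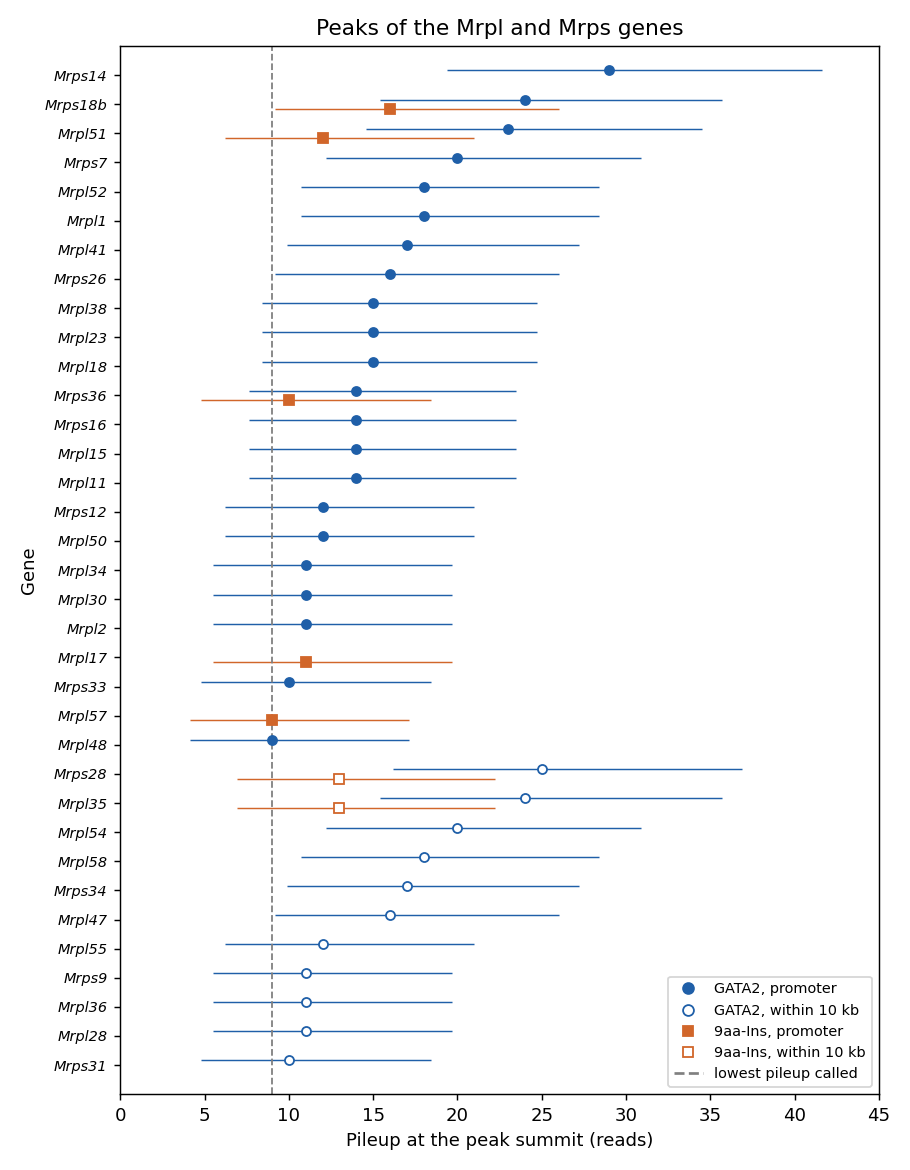
Reads over the peak summit (x axis) for the 35 genes with a peak within 10 kb (y axis), with exact Poisson 95% intervals as bars. Circles are GATA2 and squares 9aa-Ins, filled for a promoter peak and open for a peak within 10 kb only. One peak is drawn per gene and list, a promoter peak before others and then the highest. The dashed line is the lowest pileup called in either list, 9 reads. Mrps14 is highest at 29 reads, and every 9aa-Ins square lies at 16 reads or fewer.

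The pileup, the number of reads over a summit, was low at these genes. The 23 distinct GATA2 promoter peaks of the 22 genes ranged from 9 to 29 reads with a median of 15, the same as the median of 15 over all 3410 GATA2 promoter peaks, whose highest had 87 reads. The upper quartile was 17.5 reads at the mitochondrial ribosomal protein genes and 20 reads at all promoter peaks. The 5 promoter peaks with 9aa-Ins had 9 to 16 reads, with a median of 11, beside 13 over all 793 promoter peaks of that list. The lowest pileup in each list was 9 reads, over backgrounds of 0.464 reads with GATA2 and 0.455 reads with 9aa-Ins. A site under this limit is in no list, so a gene without a peak is a gene at which none was detectable at this depth.

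Mrps14, which encodes a protein of the head of the small subunit, had the highest GATA2 pileup of the group at 29 reads (exact Poisson 95% interval 19.4 to 41.6), at percentile 92.4 of the list. Its peak, chr1:160194988-160195485, was 498 bp wide with a fold enrichment over background of 20.5, and the summit lay 75 bp upstream of the start, outside any protein-coding gene. The nearest other protein-coding start, of Cacybp, was 17586 bp away, and starts of non-coding genes were not searched. No 9aa-Ins peak overlapped it. The sequence around this summit is shown with those of Mrpl38 and Mrpl34, the other promoter summits of the group whose WGATAR match lies outside annotated exons, and of Mrpl36, whose match lies in its intron. Each line gives the part of the 201 bp centred on the GATA2 summit that no annotated exon covers (mm10), 5′ to 3′ on the strand of the gene, with the WGATAR match or its reverse complement in capitals.

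Mrps14, chr1:160195040-160195214, plus strand: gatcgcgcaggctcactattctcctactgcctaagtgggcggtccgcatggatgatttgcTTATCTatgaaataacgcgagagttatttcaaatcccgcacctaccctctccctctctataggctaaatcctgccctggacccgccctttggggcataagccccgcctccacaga
Mrpl38, chr11:116138929-116139129, minus strand: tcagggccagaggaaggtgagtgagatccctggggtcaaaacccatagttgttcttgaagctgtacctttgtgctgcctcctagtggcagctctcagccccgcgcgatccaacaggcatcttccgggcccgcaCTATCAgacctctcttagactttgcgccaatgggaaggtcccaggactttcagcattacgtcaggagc
Mrpl34, chr8:71463656-71463849, plus strand: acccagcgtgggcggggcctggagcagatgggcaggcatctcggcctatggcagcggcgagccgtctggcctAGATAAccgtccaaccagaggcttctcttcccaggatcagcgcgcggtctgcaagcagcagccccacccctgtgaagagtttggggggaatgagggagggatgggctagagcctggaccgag
Mrpl36, chr13:73331119-73331319, plus strand: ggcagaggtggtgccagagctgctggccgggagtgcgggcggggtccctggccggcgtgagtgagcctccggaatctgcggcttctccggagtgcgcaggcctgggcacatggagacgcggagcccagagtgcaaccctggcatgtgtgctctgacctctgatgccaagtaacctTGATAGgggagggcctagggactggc

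WGATAR, searched as GATAA or GATAG preceded by A or T, on both strands, lay within 100 bp of the summit at 4 of the 23 GATA2 promoter peaks of the group (17.4%, Wilson 95% interval 6.98 to 37.1%). The matches were at Mrps14, Mrpl38, Mrpl34 and Mrps18b. The share was 14.7% over all GATA2 promoter peaks and 30.3% over all 6254 GATA2 peaks. Within 200 bp of the summit it was 30.4% (7 of 23) beside 24.9% of all promoter peaks, and in whole peaks 30.4% beside 25.2%. In equally long windows lying 2 kb away on either side, it was 28.3% at the group and 29.8% at all promoter peaks, higher than at the summits in both. At Mrps14 the match AGATAA lay 35 bp from the summit, and at Mrpl34 a match of the same letters lay 16 bp away. Mrpl38 held TGATAG at 33 bp, and Mrps18b held TGATAG at 79 bp. A match is a description of the letters and not a measured site, and the letters were absent within 100 bp of the other 19 summits.

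The peaks of Mrpl38 and Mrpl34 were lower than that of Mrps14. Mrpl38 had 15 reads (8.40 to 24.7) at 161 bp upstream, with no protein-coding start of another gene within 7 kb of the summit. Mrpl34, the counterpart of a small bacterial large-subunit protein, had 11 reads at 1210 bp upstream, and its summit lay 94 bp upstream of Abhd8, which is transcribed the other way. By distance this peak is closer to Abhd8 than to Mrpl34.

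A pair of peaks without a WGATAR match are shown for comparison, those of Mrpl52 and Mrpl11, because both summits lie outside exons and neither is within 4 kb of a start of another protein-coding gene. The Mrpl11 line stops where its first exon begins, so it covers only 133 bp of the window. The lines follow the same rule and hold no capitals because neither WGATAR nor the ETS core is present.

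Mrpl52, chr14:54426523-54426723, plus strand: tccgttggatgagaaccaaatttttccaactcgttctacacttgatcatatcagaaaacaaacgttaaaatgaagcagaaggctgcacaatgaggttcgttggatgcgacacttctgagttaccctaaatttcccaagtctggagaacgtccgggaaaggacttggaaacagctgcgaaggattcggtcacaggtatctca
Mrpl11, chr19:4962014-4962146, plus strand: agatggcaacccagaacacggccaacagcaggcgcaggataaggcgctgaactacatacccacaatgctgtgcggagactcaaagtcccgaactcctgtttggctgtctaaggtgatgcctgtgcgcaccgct

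Mrpl52 had 18 reads (10.7 to 28.4) with GATA2 at 286 bp upstream. Mrpl11, which in bacteria sits at the base of the stalk that engages translation factors, had 14 reads (7.65 to 23.5) at 33 bp upstream. Neither had a 9aa-Ins peak. Of the 4 promoter peaks with WGATAR, those of Mrps14 (29 reads) and Mrps18b (24 reads) were higher than that of Mrpl52 and those of Mrpl38 and Mrpl34 lower, and the intervals overlapped.

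Among the Mrpl genes whose numbers follow bacterial proteins, 8 had a GATA2 promoter peak: Mrpl1, Mrpl2, Mrpl11, Mrpl15, Mrpl18, Mrpl23, Mrpl30 and Mrpl34. Mrpl1, a protein of the mobile stalk at the tRNA exit site, had 18 reads at 94 bp downstream of a start. Mrpl15 had 14 reads at 2 bp upstream of its nearest start. Mrpl23, which lines the peptide exit region, had 15 reads at 156 bp upstream of its nearest start. These starts are internal, and both summits lay in an exon of the gene itself. Mrpl18 had 15 reads at 12 bp downstream. This summit also lay in an intron of Tcp1, a subunit of the cytosolic chaperonin that is transcribed the other way, 139 bp upstream of its nearest start. Mrpl2, a protein near the peptidyl transferase centre, had 11 reads at 6 bp downstream, 254 bp upstream of Klc4. Mrpl30 had 11 reads at 199 bp upstream, but its summit was only 2 bp from a start of Mitd1. These pileups ran from 11 to 18 reads and their intervals overlapped throughout.

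Among the Mrps genes of bacterial number, 5 had a GATA2 promoter peak: Mrps7, Mrps12, Mrps14, Mrps16 and Mrps18b. Mrps7, which organizes the head of the small subunit, had 20 reads (12.2 to 30.9, chr11:115603839-115604171) at 69 bp downstream. This summit also lay in an exon of Gga3, an adaptor of Golgi trafficking, 57 bp past its nearest start. Mrps12, at the decoding centre, had 12 reads (6.20 to 21) at 340 bp upstream. That summit lay in an exon of Sars2, the mitochondrial seryl-tRNA synthetase, whose start is 172 bp from a start of Mrps12. Mrps16 had 14 reads at 97 bp upstream in sequence outside protein-coding genes.

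Mrps18b had the second highest GATA2 promoter pileup of the group, 24 reads (15.4 to 35.7, chr17:35916322-35916997), and a 9aa-Ins peak of 16 reads (9.15 to 26, chr17:35916420-35916767). It is one of 3 mouse genes related to bacterial protein S18, and neither Mrps18a nor Mrps18c had a peak within 10 kb. Mrps18b and Ppp1r10, a regulatory subunit of protein phosphatase 1, are transcribed away from each other from starts 45 bp apart. The GATA2 summit lay 468 bp upstream of Mrps18b, in an exon of Ppp1r10 and 75 bp past the nearest start of that gene. The 9aa-Ins summit lay 55 bp upstream of Mrps18b and 10 bp past another start of Ppp1r10. The summits were 413 bp apart although the peaks overlapped. A second GATA2 peak of 11 reads, 2.53 kb upstream in an intron of Ppp1r10, had AGATAG 15 bp from its summit. The 9aa-Ins window held the ETS core CCGGAAG 47 bp from the summit, in the short stretch between the first exons of both genes, shown here on the minus strand with the core, as its reverse complement, in capitals.

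Mrps18b, chr17:35916390-35916433, minus strand: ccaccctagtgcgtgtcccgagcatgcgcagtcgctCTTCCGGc

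Among the genes numbered as specific to mitochondria, 9 had a GATA2 promoter peak: Mrpl38, Mrpl41, Mrpl48, Mrpl50, Mrpl51, Mrpl52, Mrps26, Mrps33 and Mrps36. The share was 26.5% of 34 genes (14.6 to 43.1%), beside 29.5% of 44 genes with bacterial numbers (18.2 to 44.2%), and these intervals overlap almost completely. The Mrpl and Mrps genes were as close, at 28.6% (17.8 to 42.4%) and 27.6% (14.7 to 45.7%). Mrpl41 had 2 GATA2 promoter peaks of 17 reads each, 144 bp and 982 bp upstream, the farther one in an exon of Pnpla7, 7 bp past its nearest start. Mrps26 had 16 reads at 164 bp upstream. Mrpl50 had 12 reads at 319 bp upstream, in an exon of Zfp189. The lowest were Mrps33, with 10 reads at 95 bp downstream, and Mrpl48, with 9 reads at 69 bp downstream. The Mrpl48 summit also lay in an intron of Rab6a, a small GTPase of the Golgi, 17 bp upstream of its nearest start. Mrpl48 also had a peak of 15 reads in its own intron, 278 bp past another of its starts.

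Mrpl51 had 23 reads (14.6 to 34.5, chr6:125191707-125192206) with GATA2 and 12 reads (6.20 to 21, chr6:125191881-125192072) with 9aa-Ins. The summits were 19 bp apart, in an exon of Mrpl51 and 222 bp upstream of Ncapd2, a condensin subunit, for GATA2. Mrps36 had 14 reads with GATA2 (chr13:100743911-100744668) and 10 reads with 9aa-Ins (chr13:100744267-100744519), with summits 89 bp apart. Mrps36 was first described as a small-subunit protein and is known as a component of the 2-oxoglutarate dehydrogenase complex. Its GATA2 window held CCGGAAG at 51 bp, and its 9aa-Ins window held TGATAA at 58 bp.

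At these 3 genes the ratio of the 9aa-Ins to the GATA2 pileup was 0.522 at Mrpl51 (95% interval from the exact binomial, 0.237 to 1.09), 0.667 at Mrps18b (0.331 to 1.31) and 0.714 at Mrps36 (0.284 to 1.73). Every interval included 1, so at this depth the difference at each gene was within counting error. The median of 0.667 stood beside 0.650 over all 733 shared GATA2 promoter peaks. Of the 23 GATA2 promoter peaks of the group 3 overlapped a 9aa-Ins peak by at least 1 bp (13%, Wilson 95% interval 4.54 to 32.1%), beside 21.5% of all GATA2 promoter peaks. This value was 4.35% (1 of 23) with a reciprocal overlap of 50%, and 66.7% (2 of 3) in the GATA2 list cut to the length of the other. From the other side, 3 of the 5 promoter peaks with 9aa-Ins overlapped a GATA2 peak (23.1 to 88.2%), beside 90.3% of all 9aa-Ins promoter peaks. Among all promoter peaks the shared part was larger at higher pileup, from 4.01% at 9 to 12 reads, 11.9% at 13 to 16 reads and 28.1% at 17 to 22 reads to 58.2% at 23 or more reads. Of the group, 0 of 7, 1 of 8, 0 of 5 and 2 of 3 peaks in these ranges were shared.

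The other 20 GATA2 promoter peaks of the group were compared with the most reads that an uncalled 9aa-Ins site could hold if the limit of the list is taken as its lowest pileup, which is 8 reads. These peaks were picked for being called with GATA2 and not with 9aa-Ins, so the ratio is below 1 at each by construction. Its interval depends on the GATA2 pileup alone, since no 9aa-Ins reads were measured at these sites. The ratio was at most 0.276 at Mrps14 (upper bound 0.618) and at most 0.40 at Mrps7 (upper bound 0.948), those with the most GATA2 reads. It cannot decide whether absence from the 9aa-Ins list exceeds counting error at any of the 20 peaks. The same holds for Mrpl17 and Mrpl57 in the other direction. Mrpl17, which lies near the exit of the peptide tunnel in bacteria, had 11 reads with 9aa-Ins (5.49 to 19.7, chr7:105810804-105811139). Its summit lay in its own exon, 1 bp upstream of an internal start, with AGATAG 38 bp away. Mrpl57 had 9 reads (4.12 to 17.1, chr14:57826228-57826410), the lowest the list holds, at 5 bp upstream and 44 bp upstream of Ska3, a kinetochore protein, with CCGGAAG 14 bp away.

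**Figure D2:**
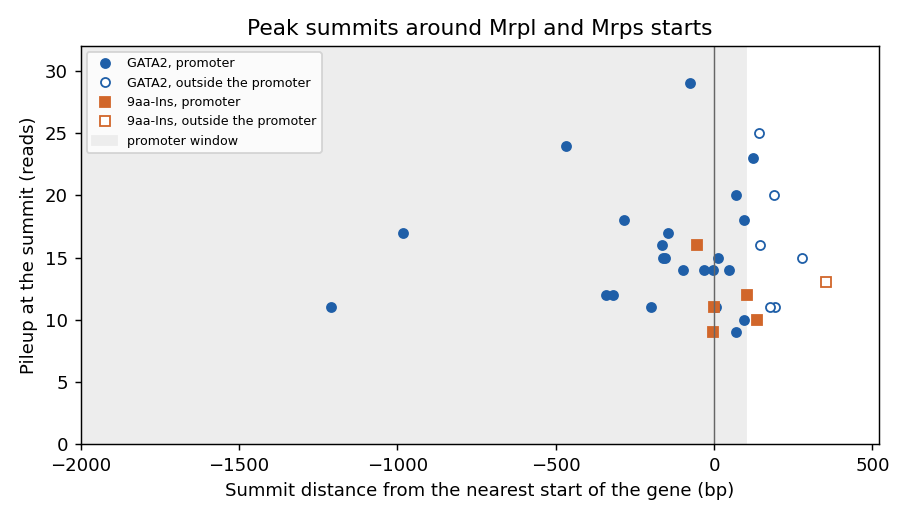
Distance of each summit from the nearest start of its gene in bp, negative upstream (x axis), against the pileup in reads (y axis), for summits from 2 kb upstream to 500 bp downstream. The grey band is the promoter window, filled symbols are promoter peaks and open symbols are other peaks. Filled symbols right of the band belong to Mrpl51 and Mrps36, whose summits lie inside the window of another of their starts. Of the open circles, 5 lie past the edge at 100 bp but within 200 bp.

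The median GATA2 promoter summit of the group lay at -97.0 bp from the nearest start of the gene, beside -62.0 bp over all GATA2 promoter peaks, each measured to the nearest start of a gene it was assigned to. The side of the start changed with the window. With 500 bp to each side the median of the group was 6 bp downstream (27 peaks), and with 1 kb upstream it was -86.0 bp (22 peaks). Of the 23 summits, 17 (73.9%) lay within 200 bp of a start, beside 74.1% of all promoter peaks. The edge of the window mattered for the counts of the group. Of 11 genes with a GATA2 peak within 10 kb and none at the promoter, 5 had it past 100 bp but within 300 bp downstream of a start. No such share over all genes is given here. Mrps28 had 25 reads (16.2 to 36.9) with GATA2 at 142 bp, a pileup exceeded in the group only by Mrps14, and 13 reads with 9aa-Ins at 353 bp. Mrpl47 had 16 reads at 145 bp, and this summit lay 12 bp past the nearest start of Ndufb5, a subunit of respiratory complex I transcribed the other way. Mrps9 had 11 reads at 176 bp, Mrpl54 had 20 reads at 190 bp in its intron, and Mrpl36 had 11 reads at 193 bp. The Mrpl36 window held TGATAG 75 bp from the summit, in the sequence printed with that of Mrps14.

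The other 6 genes had their nearest GATA2 peak at least 2.81 kb away, and for 4 of them it lay at another gene. Mrpl35 had 24 reads with GATA2 at 4.46 kb and 13 reads with 9aa-Ins at 4.74 kb, and the GATA2 summit was 6 bp from the start of Immt, a protein of mitochondrial cristae junctions. Their ratio was 0.542 (0.253 to 1.11), and that of Mrps28 was 0.520 (0.244 to 1.06), so both intervals included 1. The peak of Mrpl28, with 11 reads at 3.08 kb, was in an exon of Tmem8. The peak of Mrpl55, with 12 reads at 6.78 kb, was in an exon of 2310033P09Rik. The peak of Mrps34, with 17 reads at 8.57 kb, lay 93 bp upstream of Spsb3. Mrpl58, a peptidyl-tRNA hydrolase built into the large subunit, had 18 reads at 3.03 kb outside genes, and Mrps31 had 10 reads at 2.81 kb in its intron. Mrps7 had a second peak of 13 reads at 8.02 kb, 4 bp from the start of Mif4gd.

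The 43 genes with no peak within 10 kb, a smaller share than among all protein-coding genes, were Mrpl3, Mrpl4, Mrpl9, Mrpl10, Mrpl12, Mrpl13, Mrpl14, Mrpl16, Mrpl19, Mrpl20, Mrpl21, Mrpl22, Mrpl24, Mrpl27, Mrpl32, Mrpl33, Mrpl37, Mrpl39, Mrpl40, Mrpl42, Mrpl43, Mrpl44, Mrpl45, Mrpl46, Mrpl49 and Mrpl53, and Mrps2, Mrps5, Mrps6, Mrps10, Mrps11, Mrps15, Mrps17, Mrps18a, Mrps18c, Mrps21, Mrps22, Mrps23, Mrps24, Mrps25, Mrps27, Mrps30 and Mrps35. They include Mrpl10 and Mrpl12, which form the stalk that recruits translation factors. They also include the pair Mrpl46 and Mrps11, 1 gene of each subunit, transcribed away from each other from starts 30 bp apart.

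Such arrangements were common in the group. An opposite-strand protein-coding gene had a start within 1 kb of 33 of the 78 genes (42.3%), beside 12.3% of all protein-coding genes. Among all genes, those so arranged had a GATA2 promoter peak more often, 38.2% beside 13.6% of the rest, and a shared promoter peak counts for both genes. Among the mitochondrial ribosomal protein genes, the shares were 30.3% (10 of 33) and 26.7% (12 of 45). For 8 of the 23 promoter peaks a start of another protein-coding gene was nearer to the summit than any start of the member. No such share over all promoter peaks is given here, so this count is not a trait of the group. At the 44 genes with no other protein-coding start on either strand within 1 kb, 27.3% had a GATA2 promoter peak, beside 13.5% of all genes of that kind. Most summits of the group fell in an exon of a protein-coding gene, 13 of 23 (56.5%), beside 39.1% of all GATA2 promoter summits.

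**Figure D3:**
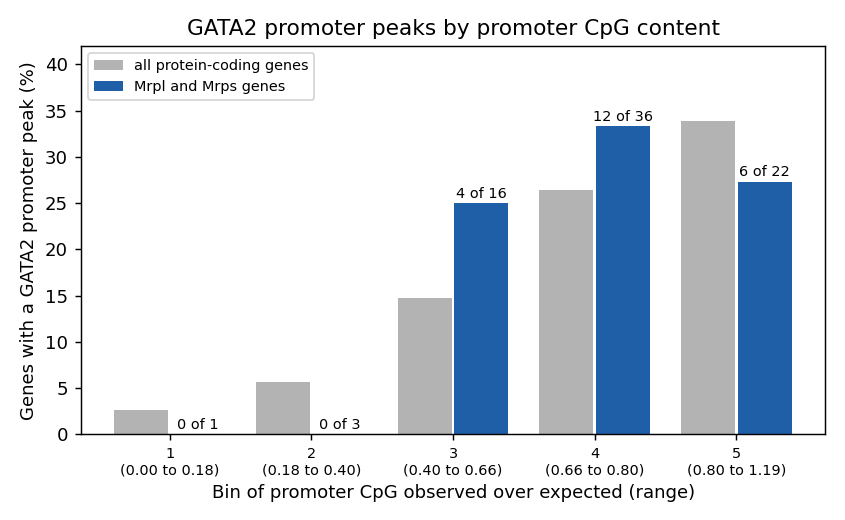
Share of genes with a GATA2 promoter peak in percent (y axis) in 5 equal bins of promoter CpG content over all protein-coding genes (x axis, range of observed over expected in parentheses). Grey bars are all protein-coding genes and blue bars the Mrpl and Mrps genes, with their counts. The grey bars climb from 2.58% to 33.9%, and the blue bars stand above grey in bins 3 and 4 and below in bin 5.

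The base composition of the promoters moved with the share of genes that had a peak. In the 1 kb centred on the gene start, CpG dinucleotides relative to the number expected from base content had a median of 0.721 in the group and 0.553 over all protein-coding genes. In 5 equal bins of this ratio, GATA2 promoter peaks went from 2.58% of all genes in the lowest bin to 33.9% in the highest. The group had 1, 3, 16, 36 and 22 genes in these bins, of which 0, 0, 4, 12 and 6 had a GATA2 promoter peak. When the shares of all genes were weighted to the bins of the group, they came to 25% with GATA2 and 6.40% with 9aa-Ins, beside 28.2% and 6.41% in the group, and both weighted values lay inside the intervals of the group. In the upper 2 bins, where 74.4% of the group lay, the shares were 31.0% in the group and 30.1% in all genes. The part of CpG content in these counts was not tested. Within the group, the median ratio was 0.759 at the 22 genes with a GATA2 promoter peak and 0.709 at the 54 genes with no promoter peak in either list.

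**Figure D4:**
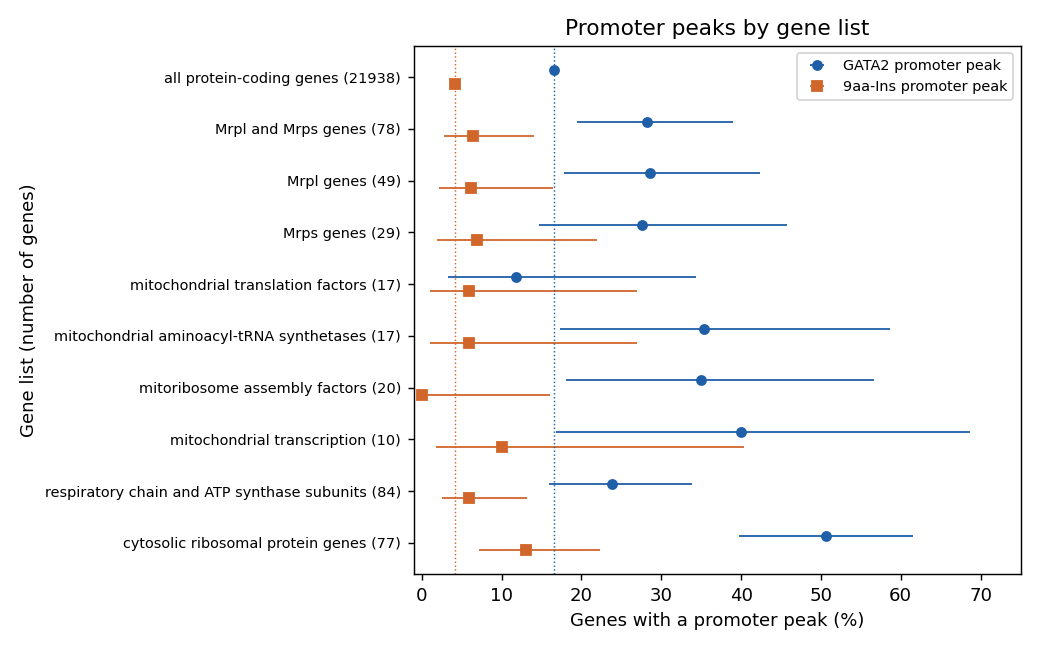
Share of genes with a promoter peak in percent (x axis) for gene lists (y axis, number of genes in parentheses), with Wilson 95% intervals as bars. Circles are GATA2 and squares 9aa-Ins, and dotted lines mark the shares of all protein-coding genes, 16.6% and 4.19%. The Mrpl and Mrps genes lie at 28.2% with GATA2, between the translation factors at 11.8% and the cytosolic ribosomal protein genes at 50.6%.

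Other genes of mitochondrial translation were counted in the same way. The lists were written from general knowledge with earlier results of these data known. Of 5 mitochondrial ribosome proteins under other symbols, only Ptcd3 had a GATA2 promoter peak, with 12 reads. Of 17 translation factors and regulators 2 had one (11.8%, 3.29 to 34.3%), namely the release factor Mtrf1l with 27 reads and Lrpprc, which stabilizes mitochondrial messenger RNA, with 26 reads. Of 17 mitochondrial aminoacyl-tRNA synthetases 6 had one (35.3%, 17.3 to 58.7%): Aars2, Cars2, Fars2, Mars2, Nars2 and Wars2, with 10 to 19 reads. Of 20 assembly factors 7 had one (35.0%, 18.1 to 56.7%), with Tfb1m, a methyltransferase of the small ribosomal RNA, highest at 24 reads. Of 10 genes of mitochondrial transcription and replication 4 had one (40.0%, 16.8 to 68.7%): Tfb2m, Tefm, Polg and Polg2. With 9aa-Ins, promoter peaks were found at Lrpprc (10 reads), Aars2 (10 reads) and Polg2 (16 reads).

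The subunits of the respiratory chain and ATP synthase, with which the products of the mitochondrial ribosome assemble, had a GATA2 promoter peak at 20 of 84 genes (23.8%, 16 to 33.9%). The cytosolic ribosomal protein genes had one at 39 of 77 (50.6%, 39.7 to 61.5%), and that interval does not overlap the 19.4 to 39.0% of the mitochondrial ribosomal protein genes. With 9aa-Ins the shares were 5.95% (2.57 to 13.2%), 13% (7.21 to 22.3%) and, for the mitochondrial ribosomal protein genes, 6.41% (2.77 to 14.1%), with overlapping intervals. In the upper 2 bins of CpG content, GATA2 promoter peaks were at 50% of 66 cytosolic and 31.0% of 58 mitochondrial ribosomal protein genes.

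**Figure D5:**
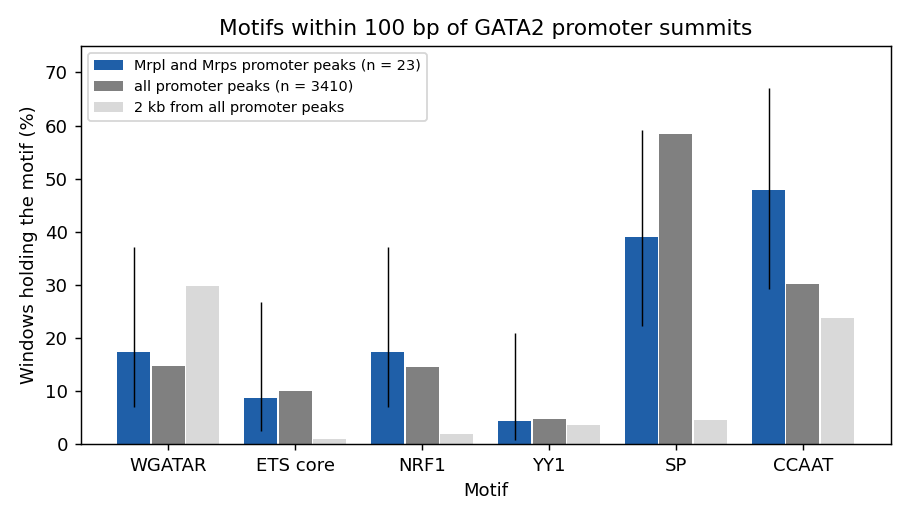
Share of windows reaching 100 bp to each side of a GATA2 promoter summit that hold a motif, in percent (y axis), for 6 motifs (x axis). Blue bars are the 23 promoter peaks of the Mrpl and Mrps genes with Wilson 95% intervals, dark grey bars all 3410 promoter peaks, and light grey bars windows 2 kb to each side of all promoter peaks. WGATAR is lower at all promoter summits (14.7%) than 2 kb away (29.8%), and SP is higher (58.5% against 4.59%).

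The other motifs were those of factors known at promoters of this class, searched on both strands. The ETS core CCGGAAG lay within 100 bp of the summit at 2 of the 23 peaks (8.70%, 2.42 to 26.8%), those of Mrpl38 and Mrps36, beside 10.1% of all GATA2 promoter peaks. Within 200 bp it was at 8 peaks (34.8%) beside 19.3%, and in whole peaks at 7 (30.4%) beside 18.3%, so its place relative to all promoter peaks turned with the width searched. NRF1, searched as GCGCANGC, was found at 4 peaks (17.4%) beside 14.5%, and YY1, searched as AANATGGC, at 1 peak (4.35%) beside 4.78%. The SP motif GGGCGG was found at 9 peaks (39.1%, 22.2 to 59.2%) beside 58.5%, and CCAAT at 11 peaks (47.8%, 29.2 to 67.0%) beside 30.2%. No 2 of these words contain one another.

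In the 300 bp from 250 bp upstream to 50 bp downstream of the gene start, whether or not a peak was there, 34.6% of the 78 genes held the ETS core (25 to 45.7%), beside 10.8% of all protein-coding genes. NRF1 was at 26.9% (18.3 to 37.7%) beside 12.7%, and YY1 at 20.5% (13 to 30.8%) beside 6.16%. WGATAR was at 28.2% (19.4 to 39.0%) beside 27.6%, SP at 44.9% (34.3 to 55.9%) beside 43.0%, and CCAAT at 35.9% (26.1 to 47.0%) beside 39.0%. Genes of the group with and without a GATA2 promoter peak held the ETS core at 31.8% and 35.7%, and WGATAR at 27.3% and 28.6%, with overlapping intervals. NRF1 was at 22.7% and 28.6%, and YY1 at 13.6% and 23.2%. The SP motif was at 63.6% of genes with a GATA2 promoter peak (43.0 to 80.3%) and 37.5% of those without (26 to 50.6%), the widest gap of the 6 motifs, and CCAAT at 45.5% and 32.1%. These intervals overlapped too.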

How the data were processed

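Per the labels and the methods of the study, the authors used Bowtie2 to align CUT&Tag reads (mm10), discarded duplicate and blacklisted reads, called peaks with MACS3 at a q-value of 1e-06 and merged the 2 anti-HA replicates of each group. The methods describe merging of peaks, but each list has 1 background value, as a call on merged reads would. Tool versions are not given in the sources used here. The deposited lists hold 6254 GATA2 and 1079 9aa-Ins peaks, and 0 columns of other samples were used. The fold enrichment is a ratio the authors' caller gave, the summit pileup plus 1 over the background plus 1. All values gave whole pileups (100%, within 0.01 reads). The deposited −log10 q-values served to filter and rank peaks. Read totals were not analysed here.

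Members and gene lists were chosen with earlier results of these data known. All transcript starts of GENCODE M21 were used (GRCm38, which is mm10). The text names members with a 9aa-Ins promoter peak, those of the 10 highest and 5 lowest GATA2 promoter pileups, up to 5 with a GATA2 peak within 10 kb only, and members with WGATAR at the summit. Other members were named to account for all. Since the lists merge the replicates, no test was made. Shares have Wilson 95% intervals, pileups exact Poisson intervals and ratios exact binomial (Clopper-Pearson) intervals. Reads carried no molecular identifiers. Gene assignment and pileup recovery were checked on simulated peaks, and the WGATAR search only on short typed sequences (Python 3.11.15, SciPy 1.17.1, pysam 0.24.0).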

Additional observations from a re-analysis of the deposited data

How the results depend on the processing

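No paired analysis was possible because the deposited lists merge both replicates, and for the same reason no replicate could be left out. Of 67 alternatives, 58 left the value inside its interval or within its allowed range. The share of genes with a GATA2 promoter peak was 28.2% and fell to 3.85% (all genes 3.12%) when only as many GATA2 peaks of lowest q-value were kept as 9aa-Ins had. The share with a 9aa-Ins promoter peak, 6.41%, was 2.56% with the gene start only and 2.56% at q 1e-10 (all genes 2.81% and 3.00%), so at both settings it was no longer above that of all genes. Within 50 kb instead of 10 kb, 65.4% of the genes had a GATA2 peak and 20.5% a 9aa-Ins peak (all genes 42.3% and 13%). The share of GATA2 promoter peaks shared with 9aa-Ins, 13%, was 4.35% with a reciprocal overlap of 50% and 66.7% (2 of 3 peaks) in the shortened list. The ETS core, at 8.70% of summits, was at 34.8% within 200 bp of the summit and at 30.4% in whole peaks (all promoter peaks 19.3% and 18.3%). Chosen after seeing the data, a promoter reaching 500 bp downstream gave 34.6% with GATA2 (all genes 18.1%) and 7.69% with 9aa-Ins (4.57%), and the upper 3 bins of CpG content gave 29.7% (25%) and 6.76% (6.46%). Pileups of 9 to 29 reads limit what can be said of any single gene.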
